A study of Mus musculus with 5 samples.

Results

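The 6 genes described here make up the mouse system that senses immunoglobulin G (IgG) through its constant part: the activating Fc gamma receptors *Fcgr1*, *Fcgr3* and *Fcgr4*, the inhibitory receptor *Fcgr2b*, the adaptor *Fcer1g* and the neonatal Fc receptor *Fcgrt*. They were picked by symbol, with earlier results of these data known, and all 6 were found among the 32285 genes counted in each of 5 kidney libraries. The libraries came from dissociated kidneys of male wild-type C57BL/6 mice, 8 to 10 weeks old. Aristolochic acid I (AAI), a plant toxin that injures the proximal tubule, was given by repeated injections of 3 mg/kg into the abdomen, and 2 libraries were made at week 2, when dosing ended (AKI 1 and AKI 2). A further 2 libraries were made at week 4, after a rest without the toxin (CKD 1 and CKD 2), and 1 control library came from vehicle-treated kidney. The labels do not say how many mice each library holds, so the p-values below measure only the spread between these libraries.

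Fc gamma receptors bind IgG on immune complexes and coated particles. The activating receptors have no signalling tail of their own and pass the signal to the FcR gamma chain encoded by *Fcer1g*, which carries an immunoreceptor tyrosine-based activation motif (ITAM) and recruits the kinase Syk. The inhibitory receptor carries the opposite kind of motif and recruits the phosphatase SHIP1 (*Inpp5d*), so the balance of both kinds of receptor on a cell sets its threshold for IgG. Macrophages carry all of these receptors, mouse B lymphocytes are known for the inhibitory one alone, and mouse NK cells are known for *Fcgr3*. FcRn, the product of *Fcgrt*, protects IgG and albumin from breakdown inside endothelial, epithelial and myeloid cells.

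On the GRCm39 assembly (GENCODE annotation, matched by Ensembl identifier), 4 of the 6 genes lie on chromosome 1. *Fcgr2b* spans bases 170786186 to 170804177, *Fcgr4* 170846466 to 170857330, *Fcgr3* 170878738 to 170893549 and *Fcer1g* 171057141 to 171062219. *Fcgr1* lies on chromosome 3 (96190225 to 96201338) and *Fcgrt* on chromosome 7 (44742412 to 44756819). *Fcgr4* is on the plus strand and the other 5 are on the minus strand. *Fcgr2b* and *Fcgr3* are nearly identical in the exons of their extracellular parts, and how the counting split reads that fit both is not given in the sources used here, so the levels of these 2 genes are less certain than the others. *Gm38204*, *Gm35090* and *Gm45669* overlap *Fcgr2b*, *Fcgr4* and *Fcgrt* on the opposite strand.

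The bases around the transcription start were searched on both strands for GAGGAA, a motif found in binding sites of PU.1, a myeloid transcription factor. Shorter and other forms of the site were not searched. The 120 bases before the start are printed below 5′ to 3′ along the gene from RefSeq on GRCm38.p6, with the match in capitals; TTCCTC is the same motif on the other strand.
*Fcgr1* (chr3:96293970-96294089, minus strand): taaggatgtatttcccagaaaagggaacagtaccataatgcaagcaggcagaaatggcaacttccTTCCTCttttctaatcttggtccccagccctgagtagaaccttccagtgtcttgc
*Fcgr3* (chr1:171059395-171059514, minus strand): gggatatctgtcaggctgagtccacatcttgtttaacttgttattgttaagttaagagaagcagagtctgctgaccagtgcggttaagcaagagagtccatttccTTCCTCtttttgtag
*Fcgr4* (chr1:171018806-171018925, plus strand): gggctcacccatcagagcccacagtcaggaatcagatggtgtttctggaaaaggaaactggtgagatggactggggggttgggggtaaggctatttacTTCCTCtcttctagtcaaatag
*Fcgr2b* (chr1:170976072-170976191, minus strand): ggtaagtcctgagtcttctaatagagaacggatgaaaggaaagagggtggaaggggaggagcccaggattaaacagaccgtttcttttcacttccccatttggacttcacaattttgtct
The motif begins 55 bases before the start of *Fcgr1*, 15 before that of *Fcgr3* (a second listed start lies 9 bases away) and 22 before that of *Fcgr4*. It was not found in the 300-base windows of *Fcgr2b*, *Fcer1g* and *Fcgrt*, and 28.3% of all 32851 windows of that length hold it. The motif was picked after the sequences had been seen, and a match is not evidence of binding.

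The unit throughout is the unique molecular identifier (UMI), a single captured RNA molecule. After filtering, 53718 cells with 55911985 to 84052645 UMIs per library were clustered with the 6 genes and the rest of their pathway held out, and clusters were named by marker genes. Levels are given as UMIs of a gene per 10000 UMIs of all genes in a class and library. The libraries capture the 3′ end of each transcript once, so counts do not grow with transcript length. Macrophage-like cells numbered 785 in the control, 685 and 996 in AKI, and 508 and 267 in CKD. Another 6610 cells lay in clusters that did not pass the naming rules: 884 in the control, 1156 and 985 in AKI, and 2935 and 650 in CKD. Among them, myeloid-like clusters m5 and m7 matched the macrophage list best. Cluster m5 held 9 and 33 cells in AKI and 340 and 11 in CKD, and m7 held 28 and 29 against 127 and 100. Their part in the macrophage-like results was not tested. SM-like cells, which carry the markers of the Acp5-high scar-associated macrophages of the study, numbered 665 in CKD 1 and 227 in CKD 2. In AKI 2 the 35 cells given that name held only 3.86 UMIs of the SM marker list per 10000 against 183 and 213 in CKD, and the 24 control cells all held under 1000 UMIs, so SM-like cells are described for CKD only. Likewise, neutrophil-like cells are described for AKI only, since the other libraries held 2 to 7 of them. Free RNA was not removed. PT-like (proximal tubule) cells, which should lack *Fcer1g*, held 0.997 UMIs of it per 10000 in CKD 1, against 0.0356 to 0.363 in the other libraries. In CKD 1, PT-like cluster g11 stood at 2.72, while g10, g17 and g19 stood at 0.211, 0.294 and 0.220. Whether free RNA or mixed cells gave the value of g11 was not tested. In the control, 88 cells shared a barcode with a far deeper CKD 2 cell, and leaving them out changed no call described here.

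The activating receptors were found in macrophage-, monocyte- and neutrophil-like cells. *Fcgr3*, the low-affinity receptor, was the most abundant of them in macrophage-like cells, at 3.79 UMIs per 10000 in the control, 3.62 and 4.66 in AKI, and 2.40 and 2.91 in CKD. Monocyte-like cells held 2.88 and 3.39 in AKI and 1.47 and 3.34 in CKD, and neutrophil-like cells 2.46 and 2.50 in AKI. The ranges of these 3 classes overlapped, so their order cannot be told. *Fcgr1*, the high-affinity receptor, was lower, at 0.856 to 1.42 in macrophage-like and 0.561 to 0.888 in monocyte-like cells, and was at 0 and 0.104 in neutrophil-like cells. *Fcgr4*, which prefers the complement-fixing IgG subclasses, stood at 3.21 in control macrophage-like cells, 1.49 and 1.62 in AKI, and 1.04 and 1.21 in CKD. Neutrophil-like cells held 1.04 and 0.730 of *Fcgr4*, with counting intervals that reach the CKD macrophage-like values. T-like cells, taken as the level that free RNA and misplaced reads give, held at most 0.0452 of *Fcgr3*, 0.0213 of *Fcgr4* and 0.0140 of *Fcgr1*.

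Monocyte- and macrophage-like cells also held the most *Fcgr2b*. The inhibitory receptor stood at 2.96 in control macrophage-like cells, 3.68 and 4.21 in AKI, and 1.72 and 2.21 in CKD. Both CKD values lay below the control and both AKI values above it, and every macrophage-like value lay above every cDC2-like one. Monocyte-like cells held 3.17 and 4.89 in AKI and 2.08 and 3.02 in CKD. In cDC2-like cells, the dendritic cells specialised in antigen presentation to CD4+ T lymphocytes, *Fcgr2b* stood at 1.21 in the control, 1.501 and 1.59 in AKI, and 0.680 and 0.966 in CKD. B-like cells held 0.154 to 0.548, on only 4 to 23 UMIs per library.

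**Figure D1:**
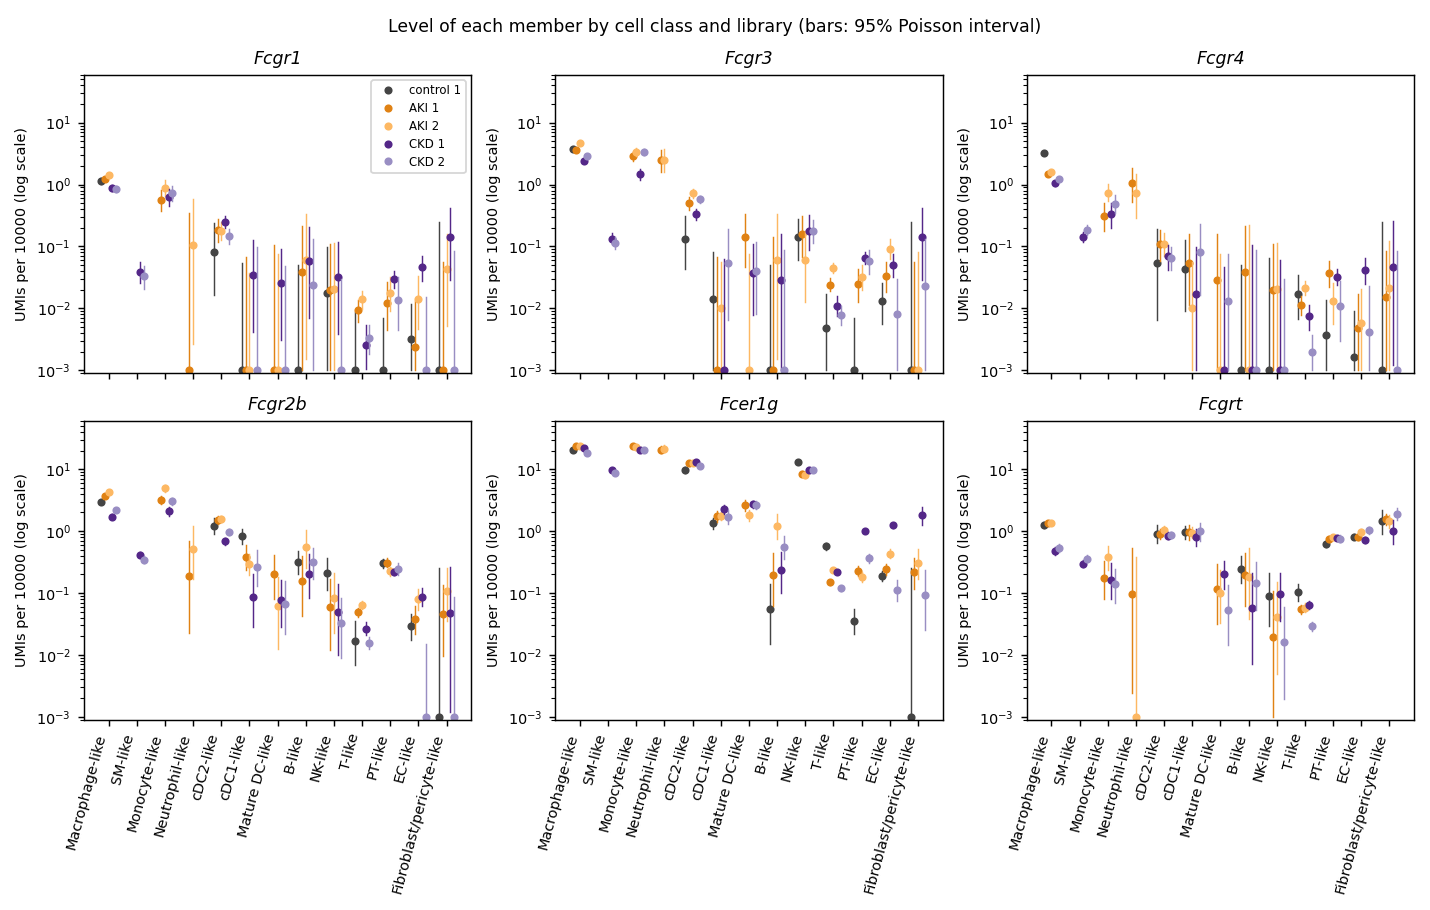
Level of each of the 6 genes (y axis, UMIs per 10000 UMIs of the class, log scale, zeros drawn at the lower edge) by cell class (x axis), with 1 point per library and 95% Poisson intervals that cover counting error only. Classes with fewer than 20 cells in a library are left out. *Fcgr4* in macrophage-like cells is at 3.21 in the control and at 1.04 to 1.62 in the other libraries, and *Fcer1g* is at 8.01 to 13.02 in NK-like cells.

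*Fcer1g* was far more abundant than any receptor and reached further. Macrophage-like cells held 18.4 to 24.1 UMIs per 10000, monocyte-like cells 20.5 to 23.4 over AKI and CKD, and neutrophil-like cells 20.6 and 21.5 in AKI, 3 ranges that overlapped. SM-like cells held 9.88 in CKD 1 and 8.67 in CKD 2. Their receptors were much lower: *Fcgr3* stood at 0.133 and 0.114, *Fcgr1* at 0.0383 and 0.0327, *Fcgr4* at 0.144 and 0.186, and *Fcgr2b* at 0.411 and 0.347. Thus SM-like cells held 9.88 UMIs of the adaptor per 10000 beside 0.133 of *Fcgr3* in CKD 1, where macrophage-like cells held 22.3 beside 2.40. The SM-like clusters were not alike: m10 alone held 74 of the 97 *Fcgr3* UMIs of SM-like cells in CKD 1 and 75 of 80 in CKD 2, and 20 of 28 and 23 of 23 *Fcgr1* UMIs. Its *Fcgr3* stood at 0.447 and 0.273, and that of m14, m15 and m18 at 0 to 0.0495. The values of the remaining SM-like clusters, m22 and m33 (121 and 23 cells in CKD 1), are not given here. The macrophage list was the next best match of m10 after the SM list, and the part of macrophages in its receptor values was not tested. NK-like cells also held much adaptor and little receptor, with *Fcer1g* at 13.02 in the control, 8.42 and 8.01 in AKI, and 9.73 and 9.53 in CKD. The gamma chain also serves other receptors of NK cells and osteoclast-like cells, among them *Ncr1* and *Oscar*.

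*Fcgrt* was spread over more classes, stromal and epithelial ones included. Fibroblast- and pericyte-like cells held 0.990 to 1.89 UMIs per 10000, cDC1-like cells 0.796 to 0.985, cDC2-like cells 0.836 to 1.05, EC-like (endothelial) cells 0.716 to 1.03 and PT-like cells 0.622 to 0.798. Macrophage-like cells held 1.25 in the control and 1.33 in both AKI libraries, but 0.481 and 0.529 in CKD. Neighbouring classes in this order overlapped in range down to PT-like cells, which stood above the next class, intercalated cells of the collecting duct. T-like cells held 0.0289 to 0.103.

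The same genes were also counted cell by cell at equal depth. Each cell was thinned to 1000 UMIs, and 0 to 57 macrophage-like cells per library with fewer UMIs were left out (the median depth before thinning was lowest in the control, at 3277 UMIs, and 5076 in CKD 1). At least 1 UMI of *Fcgr2b* was then found in 25.3% of control macrophage-like cells, 25.1% and 30.7% in AKI, and 11.2% and 14.2% in CKD. For *Fcgr3* the shares were 28.3% in the control, 26.7% and 35.7% in AKI, and 16.7% and 27.3% in CKD, so that CKD 2 lay within the AKI range. Without thinning, *Fcgr2b* was found in 52.1% of control cells, 74.5% and 78.9% in AKI, and 46.9% and 67.4% in CKD. The T-like share was at most 0.824% for *Fcgr2b* and 0.618% for *Fcgr3*. Macrophage-like cells with both an activating receptor and *Fcgr2b* made up 12.5% in the control, 12.7% and 18.1% in AKI, and 5.12% and 5.38% in CKD. Of SM-like cells, 92.6% in CKD 1 and 92.5% in CKD 2 had no UMI of any of the 4 receptors at this depth.

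The balance of activating and inhibitory receptors was measured as the share of activating UMIs (*Fcgr1*, *Fcgr3* and *Fcgr4*) among those and *Fcgr2b* together. In macrophage-like cells it was 73.3% in the control (95% exact binomial interval 71.7% to 74.9%), 63.2% and 64.7% in AKI, and 71.5% and 69.3% in CKD. As a ratio of UMIs this was 2.75 in the control, 1.72 and 1.83 in AKI, and 2.51 and 2.26 in CKD. The CKD ratio was 1.34-fold the AKI ratio, a difference of 0.43 on the log2 scale against a spread of 0.07 (SD, n = 2) in AKI and 0.11 (SD, n = 2) in CKD. All intervals of CKD libraries lay above those of AKI libraries, but with 2 libraries against 2 the exact two-sided permutation test cannot go below p = 0.333, the value it gave. With SM-like cells summed in, an alternative chosen after seeing the data, the difference was 0.12.

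In cDC2-like cells the inhibitory receptor made up most of the receptor UMIs in the control, in AKI and in CKD 2. In CKD 1 the 95% exact binomial interval of the activating share was 43.7% to 54.0%, so a majority cannot be told. The activating share was 18.2% in the control (10 of 55 UMIs), 34.7% and 38.9% in AKI, and 48.8% and 44.9% in CKD. Here the CKD ratio was 1.52-fold the AKI ratio (0.60 on the log2 scale, SD 0.19 in AKI and 0.16 in CKD, n = 2 each; exact permutation p = 0.333). That rise was not seen in both of the cDC2-like clusters with at least 20 cells in each of these libraries. In m11 the ratio went from 0.449 and 0.459 in AKI to 1.15 and 1.01 in CKD, but in m3 it went from 0.830 and 0.959 to 0.822 and 0.782. Monocyte-like cells stood near balance, at 54.2% and 50.6% in AKI and 53.8% and 60.2% in CKD, and these ranges overlapped (exact permutation p = 0.667). SM-like cells held 43.4% in CKD 1 and 49.0% in CKD 2, below the macrophage-like cells of the same libraries. Neutrophil-like cells had the highest shares of the classes described, at 94.9% and 86.5% in AKI, on 39 and 37 UMIs.

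B- and NK-like cells held few receptor UMIs. B-like cells had 23 UMIs of *Fcgr2b* and 0 of the activating receptors in the control, with a 95% exact binomial upper limit of 14.8% on the activating share, and 1 to 3 activating against 4 to 13 inhibitory UMIs in each of the other libraries. NK-like cells had 8 UMIs of *Fcgr3* against 12 of *Fcgr2b* in the control, but 22 against 4 in CKD 2. Their level of *Fcgr3* was 0.142 in the control, 0.156 and 0.0613 in AKI, and 0.177 and 0.178 in CKD, all above the T-like level of the same library, though AKI 2 rests on 3 UMIs. T-like cells were not the highest background. Over the libraries *Fcgr3* reached 0.141 in fibroblast- and pericyte-like, 0.0922 in EC-like and 0.0848 in thin limb-like cells, which overlaps the NK-like range. Between 1.00% and 3.31% of thinned NK-like cells held an *Fcgr3* UMI, against 0.0833% to 0.618% of T-like cells. NK-like cells also held T lymphocyte markers (10.5 to 26.8 UMIs of that list per 10000, beside 22.5 to 52.6 of the NK list), and the part of T lymphocytes in these values was not tested. cDC1-like cells, which present antigen to CD8+ T lymphocytes, had 2 to 5 activating UMIs per library, too few to follow.

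**Figure D2:**
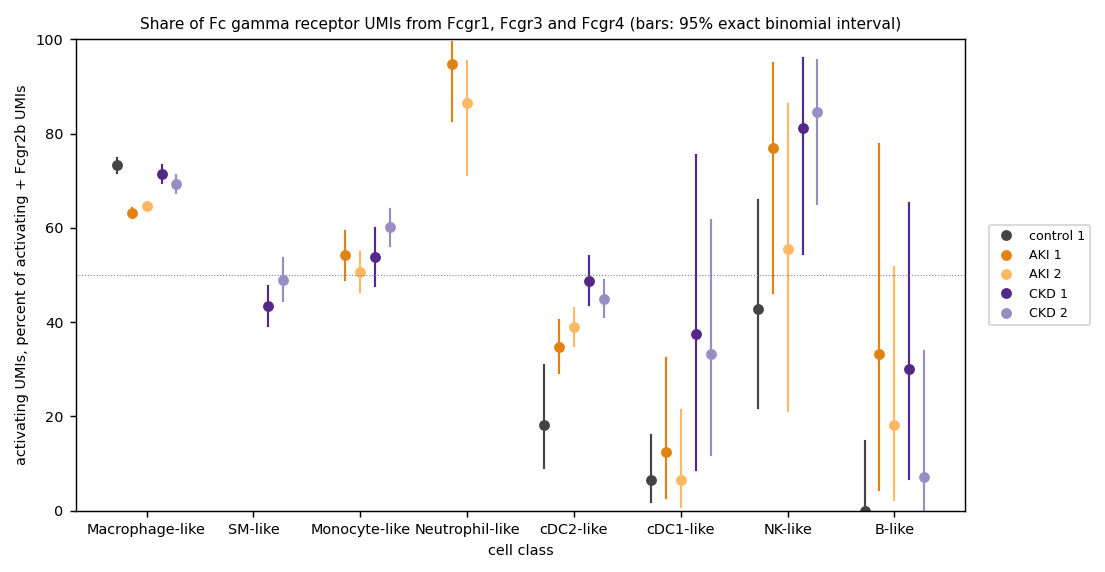
Share of UMIs from *Fcgr1*, *Fcgr3* and *Fcgr4* among all UMIs of these and *Fcgr2b* (y axis, percent) by cell class (x axis), 1 point per library with its 95% exact binomial interval. Macrophage-like cells sit at 63.2% and 64.7% in AKI and at 69.3% to 73.3% in the other libraries, and cDC2-like cells move from 18.2% in the control to 44.9% and 48.8% in CKD.

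Week 4 was compared with week 2 by edgeR's quasi-likelihood test on UMIs summed per class and library, with Benjamini-Hochberg adjustment over all genes tested. In macrophage-like cells 5 of the 6 genes fell. Of all 10827 genes tested there, 9.69% were called and 5.12% were called lower in CKD. The median log2 fold change over the 6 genes was -0.77, against 0.01 over all genes tested. *Fcgrt* fell by 1.54 on the log2 scale (SE 0.11, adjusted p = 0.00058) and *Fcgr2b* by 1.15 (SE 0.15, adjusted p = 0.0045). Of the activating receptors, *Fcgr3* fell by 0.78 (SE 0.15, adjusted p = 0.020), *Fcgr1* by 0.75 (SE 0.11, adjusted p = 0.0079) and *Fcgr4* by 0.61 (SE 0.12, adjusted p = 0.019). *Fcer1g* had a log2 fold change of -0.37 (SE 0.11, adjusted p = 0.084) and passed in 7 of 16 alternatives. No difference between genes was tested. With SM-like cells summed in, the alternative chosen after seeing the data, the log2 fold changes were -2.30 for *Fcgr3*, -2.30 for *Fcgr2b*, -2.27 for *Fcgr1*, -1.93 for *Fcgrt*, -1.86 for *Fcgr4* and -1.05 for *Fcer1g*, and all 6 passed.

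Other genes of the class moved in the same libraries. The macrophage marker list (*C1qa*, *C1qb*, *C1qc*, *Cd68*, *Csf1r*, *Adgre1*, *Mrc1* and *Apoe*) summed to 434 and 448 UMIs per 10000 in AKI, 191 and 215 in CKD and 215 in the control, with all 8 genes detected in every library. T lymphocyte markers in the same cells summed to 1.16 and 1.14 in AKI and 3.47 and 3.54 in CKD. Their part in the result was not tested. The *Fcgr2b* and *Fcgrt* calls held in all 16 alternatives tried. The calls of *Fcgr1*, *Fcgr3* and *Fcgr4* were lost when cells were clustered without correction by library (adjusted p = 0.088, 0.12 and 0.22) and when AKI 2 (0.088, 0.15 and 0.15) or CKD 2 (0.067, 0.065 and 0.050) was left out. Without CKD 1, *Fcgr3* and *Fcgr4* were at 0.062 and 0.062, and without AKI 1, *Fcgr4* was at 0.11.

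**Figure D3:**
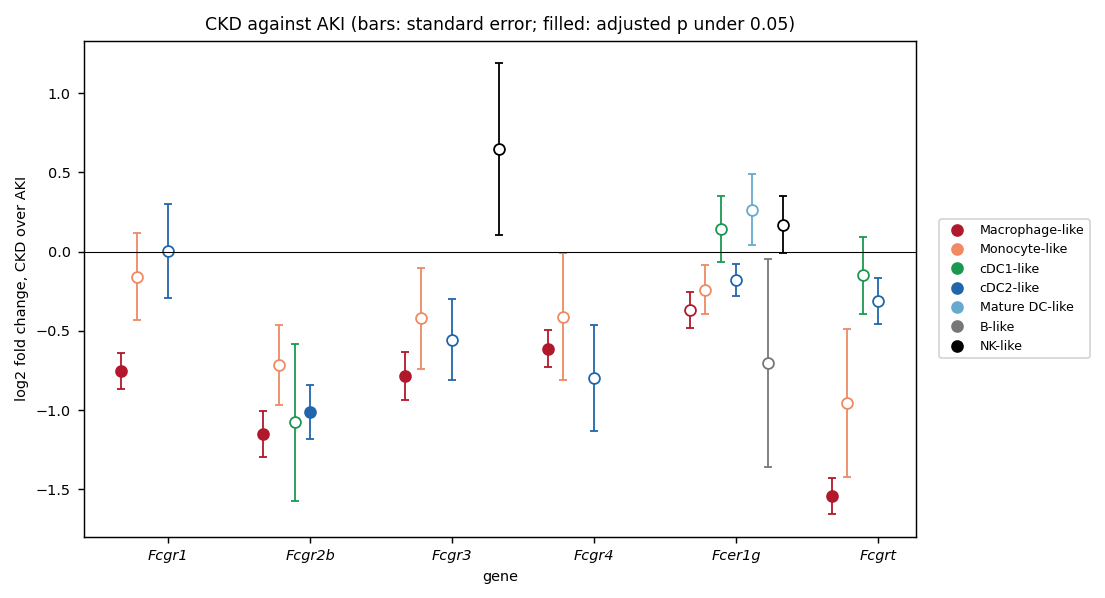
Log2 fold change of CKD over AKI (y axis) for each gene (x axis) in each cell class that could be tested, with its standard error from edgeR; filled points have an adjusted p under 0.05. Filled points are 5 genes in macrophage-like cells and *Fcgr2b* in cDC2-like cells, all below 0.

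Because macrophage-like cells fell into clusters whose shares differed between groups, the levels were also read within clusters. Control macrophage-like cells were led by cluster m0 (43.4%), AKI 1 was led by m4 (25.1%), AKI 2 by m6 (18.3%), CKD 1 by m17 (23.4%) and CKD 2 by m4 (22.1%). In total, 6 clusters held at least 20 cells in each AKI and CKD library. These clusters share the 4 libraries and are not replicates. *Fcgr2b* was lower in CKD in 6 of 6, by 0.39 to 1.18 on the log2 scale of mean levels. The AKI and CKD libraries did not overlap in 5 of 6. They overlapped in m2, at 1.51 and 1.98 in AKI and 1.70 and 0.970 in CKD. How many of all genes were lower in 6 of 6, or did not overlap in 5 of 6, was not counted. In m4, led by *Ccl8* and *C1qa*, *Fcgr2b* stood at 4.18 and 4.46 in AKI and 1.71 and 2.34 in CKD. In m1 it stood at 2.95 and 2.99 against 1.31 and 1.32. *Fcgrt* was also lower in 6 of 6, with a median difference of -1.34 and a range of -2.575 in m2 to -0.350 in m6. The m2 value rests on little: *Fcgrt* stood there at 0.525 and 0.926 in AKI and at 0.243 and 0 in CKD. Only 24 and 28 cells of CKD 1 and CKD 2 lay in m2, and its median depth was 0.347 of the library median. *Fcgr3* and *Fcgr4* were lower in 5 of 6 and *Fcgr1* in 4 of 6, while *Fcer1g* was lower in 2 of 6, with a median difference of 0.08. The activating to inhibitory ratio was higher in CKD in 4 of 6 clusters. It was lower in m6, led by *Lyz2* and *Trem2* (1.65 and 1.84 in AKI, 1.37 and 1.79 in CKD), and in m19.

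**Figure D4:**
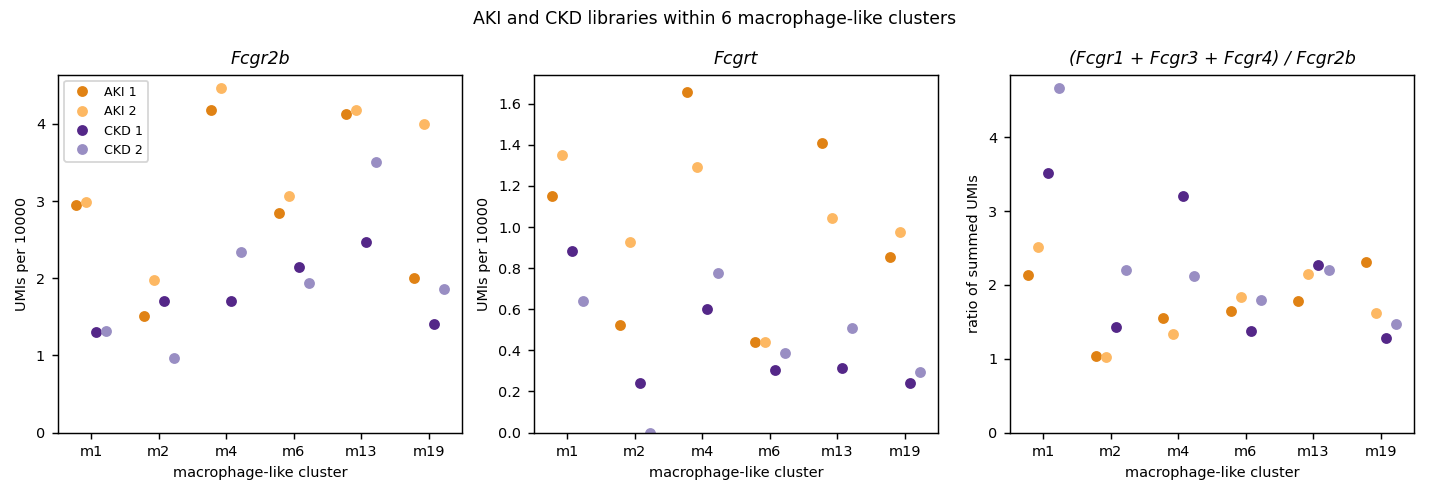
*Fcgr2b*, *Fcgrt* (y axes, UMIs per 10000) and the activating to inhibitory ratio of UMIs (y axis, right panel) in the 6 macrophage-like clusters (x axis) with at least 20 cells in every AKI and CKD library, 1 point per library. *Fcgr2b* is lower in CKD in each cluster by the mean of the libraries, while the ratio is lower in m6 and m19 and higher in the other clusters.

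In cDC2-like cells *Fcgr2b* fell by 1.01 on the log2 scale (SE 0.17, edgeR adjusted p = 0.032), the only one of the 6 called there, where 0.359% of 8638 genes were called and 0.232% were called lower. The call was lost with doublets kept (adjusted p = 0.069), at the coarser resolution (0.051) and without correction by library (0.12). In the 2 cDC2-like clusters with at least 20 cells in each of these libraries, *Fcgr2b* stood at 2.23 and 2.27 in AKI and 0.765 and 0.816 in CKD in m11, but at 0.963 and 1.24 against 0.605 and 0.991 in m3, where the ranges overlapped. The macrophage marker list in cDC2-like cells summed to 3.11 UMIs per 10000 in the control, 7.64 and 8.77 in AKI, and 6.89 and 4.45 in CKD. The T lymphocyte list summed to 0.322 in the control, 0.797 and 1.33 in AKI, and 2.09 and 3.12 in CKD. The part of both in the cDC2-like values was not tested. In monocyte-like cells no member was called, where 1.05% of 4972 genes were, and *Fcgr2b* had a log2 fold change of -0.71 (SE 0.25, adjusted p = 0.27). Macrophage markers in the monocyte-like cells summed to 218 and 153 per 10000 in AKI and 41.0 and 46.3 in CKD. In cDC1-like cells *Fcgr2b* had a log2 fold change of -1.08 (SE 0.50, adjusted p = 0.81), with no gene called among 4972 and 293 at an unadjusted p under 0.05.

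NK- and B-like cells gave no call among the members. *Fcer1g* had a log2 fold change of 0.17 in NK-like cells (SE 0.18, edgeR adjusted p = 0.998), where 0.0399% of 5014 genes were called, and *Fcgr3* one of 0.65 (SE 0.54, edgeR adjusted p = 0.998). In B-like cells only *Fcer1g* passed the filter on low counts, and no gene was called among 3262, with 122 at an unadjusted p under 0.05. In mature DC-like cells *Fcer1g* alone could be tested, and no gene was called among 5118, with 329 at an unadjusted p under 0.05.

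Against the single control library, the spread was taken from the AKI and CKD libraries and the control was assumed to vary like them. In macrophage-like cells *Fcgr4* was the only member called in AKI: it fell by 0.95 on the log2 scale (SE 0.15, adjusted p = 0.0028), among 25.5% of genes called and 10.7% called lower. In CKD it fell by 1.57 (SE 0.15, adjusted p = 0.00029), *Fcgrt* by 1.37 (SE 0.15, adjusted p = 0.00047) and *Fcgr2b* by 0.65 (SE 0.18, adjusted p = 0.029), where 30.4% of genes were called and 13.5% called lower. The *Fcgr2b* call was lost without CKD 1 (adjusted p = 0.086) and without correction by library (0.099). *Fcgr4* was called in each of 14 alternatives in both contrasts. In m0, which led the control, *Fcgr4* stood at 3.95 in the control, 2.33 and 2.42 in AKI, and 2.39 and 3.26 in CKD, where 35 and 18 cells were left. In m1 it stood at 2.72 in the control, 2.09 and 2.28 in AKI, and 0.969 and 1.481 in CKD. *Fcgrt* in m1 did not follow the class, with the control at 0.875 between the CKD values of 0.885 and 0.640. The part of the differing cluster shares in the contrasts with the control was not tested.

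In cDC1-like cells *Fcgr2b* stood at 0.820 UMIs per 10000 in the control, 0.385 and 0.295 in AKI, and 0.0865 and 0.266 in CKD. Against the control it fell by 1.42 in AKI (SE 0.38, edgeR adjusted p = 0.039; 2.94% of genes called, 1.44% lower) and by 2.50 in CKD (SE 0.45, adjusted p = 0.0016; 3.84% called, 2.09% lower). These rest on 57 UMIs in the control and 5 to 29 in the others, and neither was called with cells limited to 15% mitochondrial UMIs (adjusted p = 0.34 and 0.44). DESeq2 called neither of them. The AKI call was also lost without AKI 2 (0.15), with doublets kept (0.052) and at the coarser resolution (0.11). In cDC2-like cells no member was called against the control in AKI (5.36% of genes called) or CKD (4.96%), though *Fcgr3* stood at 0.134 in the control against 0.330 to 0.723 in the others. In NK-like cells no member was called (1.62% of genes in AKI, 0.940% in CKD).

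B-like cells gave calls for *Fcer1g*, which these cells are not known to express. Its level was 0.0548 in the control, 0.193 and 1.22 in AKI, and 0.233 and 0.551 in CKD, on 4 to 23 UMIs. It rose by 3.39 in AKI (SE 0.72, edgeR adjusted p = 0.00034; 2.27% of genes called, 0.879% higher) and by 2.67 in CKD (SE 0.71, adjusted p = 0.012; 3.04% called, 1.16% higher). The AKI call was lost without AKI 2 (adjusted p = 0.77), and both were lost without CKD 2 (0.36 and 0.84) and with DESeq2 (0.33 and 1.0). The CKD call was also lost at the 15% mitochondrial limit (0.0997). The macrophage marker list in these B-like cells summed to 2.27 UMIs per 10000 in the control, 5.70 and 6.69 in AKI, and 2.88 and 3.48 in CKD, and its part in the result was not tested.

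Whether the change from week 2 to week 4 differed between macrophage-like cells and another class was tested as an interaction with the library as a block. *Fcgrt* differed in 2 of 6 classes. Its change in cDC1-like cells was 1.43 higher on the log2 scale than in macrophage-like cells (SE 0.27, edgeR adjusted p = 0.00024; 1.41% of genes called), a call lost without AKI 2 (0.10), and in cDC2-like cells 1.26 higher (SE 0.15, adjusted p = 0.00083; 1.76% called). The level of *Fcgrt* stood at 0.952 and 0.947 in AKI against 0.796 and 0.985 in CKD in cDC1-like cells, and at 0.890 and 1.05 against 0.836 and 0.862 in cDC2-like cells. For *Fcgr2b* the difference was 0.17 in cDC2-like cells (SE 0.13, adjusted p = 0.66) and 0.44 in monocyte-like cells (SE 0.19, adjusted p = 0.37). No other member passed this test, with backgrounds of 1.42% for monocyte-, 0.367% for mature DC-, 0.685% for B- and 1.87% for NK-like cells.

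Around the receptors, a list of 67 genes of the same pathway was followed in 5 groups. In macrophage-like cells 51 could be tested, 6 rose (of all genes 4.57% were called higher) and 10 fell, with a median log2 fold change of -0.25 against 0.01 over all genes tested. The 4 oxidase and phagocytosis genes that fell, of 12 tested, were *Ncf1* and *Cybb*, subunits of the phagocyte NADPH oxidase, *Marcks* and *Pld4*. *Ncf1* fell by 0.73 (edgeR adjusted p = 0.0060) from 1.14 and 1.23 UMIs per 10000 to 0.799 and 0.778, and *Marcks* by 0.76 (adjusted p = 0.0084). Among 20 ITAM signalling genes the kinase *Lyn* fell by 0.59 (adjusted p = 0.013) and *Pik3cd*, a subunit of phosphoinositide 3-kinase, by 0.70 (adjusted p = 0.013), and *Blnk* fell too. The 4 that rose, *Lat*, *Lck*, *Fyn* and *Plcg1*, act in T lymphocyte receptor signalling, as does *Cd247* among the partners. T lymphocyte markers in these cells were higher in CKD, as given above, and their part in the values of these genes was not tested. *Clec4e*, an activating lectin receptor that signals through the FcR gamma chain, rose by 1.18 (adjusted p = 0.0025), from 0.308 and 0.379 in AKI to 0.850 and 0.877 in CKD. Of the inhibitory receptors, *Cd300a* fell by 0.89 (adjusted p = 0.018) and *Pirb* by 0.52 (adjusted p = 0.041). *Inpp5d* had a log2 fold change of -0.42 (adjusted p = 0.051), and *Syk* one of -0.20 (adjusted p = 0.30). *Cd247*, *Fyn*, *Plcg1*, *Blnk*, *Pirb*, *Inpp5d* and *Syk* were named after their values were seen. In monocyte-, cDC1-, cDC2-, mature DC-, B- and NK-like cells none of 41, 35, 47, 36, 35 and 30 genes tested was called.

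Outside the immune classes, PT-like cells taken as a whole held more of the inhibitory receptor than of the activating ones, but cluster g11 in CKD did not. *Fcgr2b* stood at 0.299 UMIs per 10000 in the control (160 UMIs, exact Poisson interval 0.255 to 0.350), 0.309 and 0.225 in AKI, and 0.220 and 0.245 in CKD. In the thick ascending limb, principal and intercalated cells of the same libraries it ran from 0.00619 to 0.0830, and EC-like cells held 0 to 0.0872. The highest value in another tubule class was 0.133, in thin limb-like cells of CKD 1 on 11 UMIs. *Fcgr3* had 0 UMIs in control PT-like cells, which allows up to 0.00562 per 10000. In CKD 1 PT-like cells held 0.0650 of *Fcgr3* beside 0.220 of *Fcgr2b*, with 78 of these *Fcgr3* UMIs in cluster g11. That cluster also held 30 UMIs of *Fcgr1* and 36 of *Fcgr4* in CKD 1, so its activating UMIs together outnumbered the 87 of *Fcgr2b*. In CKD 2 it held 3 UMIs of *Fcgr1*, 14 of *Fcgr3* and 3 of *Fcgr4* against 12 of *Fcgr2b*. *Fcgr2b* was found in all 4 PT-like clusters, at 0.158 to 0.315 over all libraries, and the order of the clusters differed between libraries. In the control, the 126 PT-like cells with an *Fcgr2b* UMI held 0.0986 UMIs of the 3 C1q genes per 10000 and the 954 without one held 0.167, and neither set held an *Fcgr3* UMI. In CKD 2 the order was the opposite: the 63 cells with *Fcgr2b* held 2.80 of the C1q genes and all 21 *Fcgr3* UMIs, while the 307 without it held 0.248. The other libraries gave 0.803 against 1.59 in AKI 1, 0.814 against 0.792 in AKI 2 and 2.06 against 3.08 in CKD 1. Splitting cells by a detected UMI also sorted them by depth. Cells with *Fcgr2b* had a median of 8494 UMIs against 2766 in the control, 27080 against 1570 in AKI 1 and 26490 against 3852 in AKI 2. In CKD 1 the medians were 4855 against 2728, and in CKD 2 they were 21500 against 3905. The part of depth and of macrophage RNA in these values was not tested. At equal depth 2.26% to 3.32% of PT-like cells held a UMI of *Fcgr2b*, against 0.157% to 0.824% of T-like cells. No difference between groups was tested for this class.

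**Figure D5:**
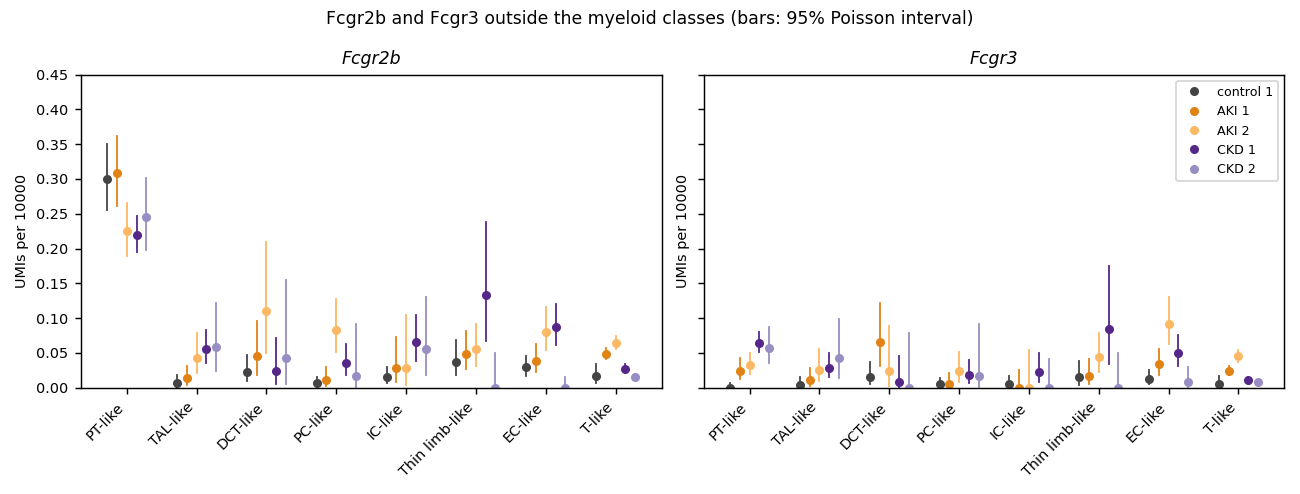
Level of *Fcgr2b* (left) and *Fcgr3* (right) in UMIs per 10000 (y axis) in tubule, endothelial and T lymphocyte classes (x axis), 1 point per library with its 95% Poisson interval. *Fcgr2b* in PT-like cells sits at 0.220 to 0.309 in all 5 libraries, and *Fcgr3* in the same cells at 0 to 0.0650.

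The genes whose pattern over the 20 named classes was most like that of each member are given as a description, by Pearson's r of log2 levels averaged over libraries. The classes share libraries and depth. *Fcgr1* was most like *Clec4a3* (r = 0.95), *C1qb* and *C1qc*, and *Fcgr3* most like *Klra2* (0.96), *Igsf6* and *Itgam*, the alpha chain of complement receptor CR3. *Fcgr4* was most like *Igsf6* (0.96), *Lyz2* and *Klra2*. *Fcgr2b* was most like *Lyz2* (0.89), *Fcgr1* and *Ctss*, a lower likeness than the activating receptors had. *Fcer1g* was most like *Tyrobp* (0.98), the other ITAM adaptor of myeloid and NK cells, followed by *Itgam* and *Ccl3*. *Fcgrt* had no close partner, and its best were *Dusp3*, *Ergic3* and *Vps35* (0.77 to 0.78).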

How the data were processed

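Kidney cells of 5 libraries were profiled by droplet 3′ RNA sequencing. The authors deposited UMI counts per gene and cell, made with Cell Ranger 7.2.0 and STAR on GRCm39 per the submitters' processing notes. A different Cell Ranger version stands in the matrix headers for AKI and CKD, and mm10 in the control gene list. Free RNA, which the study removed, is still in these matrices.

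Cells with at least 200 genes and at most 30% mitochondrial UMIs were kept (60043 of 72896), doublets were scored by the share of simulated doublets among a cell's neighbours and removed at 0.8% per 1000 cells (53718 left), and cells were clustered (scanpy 1.11.5, 3000 variable genes without the 6 genes and their pathway list, 40 components, a Harmony-type correction by library, Leiden resolution 1.5). Clusters were named by marker lists, and the naming thresholds were settled after the clusters were seen. The members and lists were chosen with earlier results of these data known.

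UMIs were summed per class and library and tested with edgeR 4.0.16 (quasi-likelihood, TMM, filterByExpr, adjusted p under 0.05); 10827 genes were tested in macrophage-like cells. Intervals are 95% and cover counting error only, and a count of 0 allows up to 3 UMIs. Of the pathway list, at most 10 genes past the threshold were to be named by p, and for each member the 3 genes most like it. On simulated counts for the macrophage-like comparison of CKD with AKI (10548 genes), 55.8% of genes changed by 1 on the log2 scale and 89.9% of those changed by 2 were recovered. Alternatives were DESeq2 1.42.0, other factors, filters, cell limits, clusterings and left-out libraries. Not every gene of the pathway list is reported here by name.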

Additional observations from a re-analysis of the deposited data

Results flagged for a closer look

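The fall of *Fcgrt* from AKI to CKD differed between macrophage-like cells and both conventional dendritic classes by the test of the difference itself (edgeR, library as a block). The change was higher by 1.43 on the log2 scale in cDC1-like cells (adjusted p = 0.00024) and by 1.26 in cDC2-like cells (adjusted p = 0.00083). Macrophage-like cells went from 1.33 in both AKI libraries to 0.481 and 0.529 UMIs per 10000 in CKD.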

How the results depend on the processing

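The difference in log2 activating to inhibitory ratio between CKD and AKI, 0.43 in macrophage-like cells, was 0.55 with *Fcgr4* alone, 0.64 as a mean over cells, 0.64 without correction by library and 0.12 with SM-like cells summed in (chosen after seeing the data). In monocyte-like cells it was 0.27, with 0.59 for *Fcgr1* alone, and turned to -0.13 at resolution 0.8 and -0.14 without correction. In cDC2-like cells it was 0.60, with 0.24 for *Fcgr4* alone, 1.01 for *Fcgr1* alone and 0.42 as a mean over cells. In B-like cells it was -0.88, and ran from -2.12 without CKD 1 to 0.36 without CKD 2. Of 6 calls for CKD against AKI, leaving out 1 library gave 3 to 7, the 15% mitochondrial limit 15 and no correction by library 2. With the replicate number as a block there were 7 calls, the 6 and *Fcer1g* in macrophage-like cells; same-numbered libraries correlated by -0.08 to 0.15 in their deviations, so the numbers were not taken as pairs. Against the control, 8 calls became 4 with DESeq2 and 15 without the filter on low counts, and left-out libraries gave 6 to 12. The 2 differences between classes became 4 without the filter, 8 with the 15% limit, 8 with doublets kept, 19 with SM-like cells summed in, and 1 to 4 with a library left out. The causes were not tested.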
